A study of Homo sapiens with 3 samples.

Results

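The genes described here stood at least 2-fold from the control in HaCaT cells given the second of 2 siRNAs against SRSF5, and close to the control with the first. HaCaT is an immortalized human keratinocyte line. RNA was sequenced with an mRNA kit in 3 libraries, 1 each for cells labelled WT and given a control siRNA, for cells given SRSF5 siRNA No.1 (siRNA 1) and for cells given SRSF5 siRNA No.2 (siRNA 2). Each siRNA was used at 10 nM with RNAiMAX, and no time after transfection is stated. With 1 library a group there is no replicate spread, so no difference has a p-value and a difference between cultures cannot be told apart from one between siRNAs.

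A gene's level is the sum of the deposited FPKM (a read density scaled for transcript length and library size) over its listed transcripts. Isoforms share reads, so these sums grow with the number of transcripts listed and are compared between libraries, not between genes. Ratios are log2 values of siRNA over control after 1 FPKM was added to each sum. Of 9877 genes with a mean sum of at least 5 FPKM, 435 were selected on 2 conditions, a siRNA 2 ratio of at least 1 in size and a siRNA 1 ratio under 0.5 in size. Of these, 185 were higher with siRNA 2 (1.87% of tested genes) and 250 were lower (2.53%), and these shares are the background for the counts of members in gene lists below. All tested genes at least 2-fold from control with siRNA 2 numbered 377 higher (3.82%) and 335 lower (3.39%), and since the same ratio chose the members nothing is read from their count. The members' ratios are given as a description for the same reason.

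SR proteins such as SRSF5 bind exonic sequences of pre-mRNA and help choose splice sites. An siRNA is loaded into an Argonaute complex and leads to cleavage of mRNAs that match it along its length. It can also lower other mRNAs that pair with bases 2 to 8 of the loaded strand, as microRNAs do, mostly through sites in 3′ untranslated regions (3′ UTRs). For this reason a knockdown is commonly made with more than 1 siRNA, and the responses are compared.

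SRSF5 itself stood at 94.1 FPKM in control cells, and at 44.3 and 18.7 FPKM under siRNA 1 and siRNA 2. The target was thus lowest in the siRNA 2 library, at 19.8% of control against 47.1% with siRNA 1. All of the 10 keratinocyte markers looked up were above the level filter, as were 1 of 7 melanocyte markers (MITF; 3.78, 7.33 and 5.23 FPKM in control, siRNA 1 and siRNA 2), 1 of 5 immune markers (CD68; 28.9, 19.6 and 17.9 FPKM), and none of the 9 fibroblast and 4 endothelial markers. The summed keratinocyte markers stood at 4968, 6267 and 10164 FPKM in control, siRNA 1 and siRNA 2. Counting 1 transcript a gene, the libraries held 18327244, 17710667 and 15867881 read equivalents (100 counted bases each), and mitochondrial transcripts took 13.7%, 14.8% and 10.0% of the counted bases. The part of the deeper knockdown, of the marker shift and of the lower mitochondrial share in the results below was not tested.

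**Figure D1:**
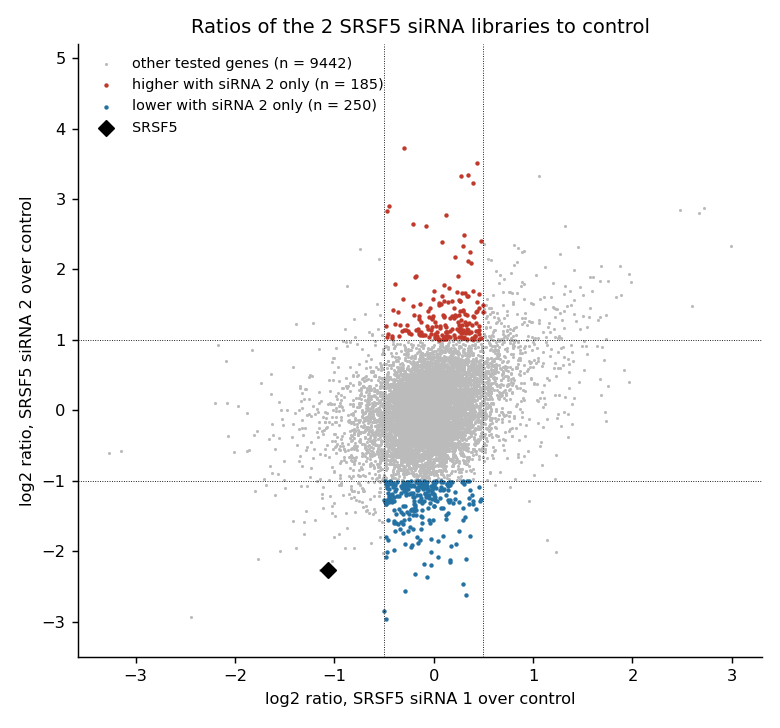
Each point is 1 of the 9877 tested genes, with the log2 ratio of siRNA 1 over control on the x axis and of siRNA 2 over control on the y axis. The 185 higher genes (red) and 250 lower genes (blue) fill the central column by construction, and SRSF5 (diamond) lies at -1.07 and -2.27.

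Taking the 2-fold siRNA 2 differences as a whole, 185 of the 377 higher genes and 250 of the 335 lower genes were without a siRNA 1 counterpart by the rule. The remaining 192 higher genes had a siRNA 1 ratio of at least 0.5 in size, 176 of them in the same direction. The remaining 85 lower genes did so too, 80 of them in the same direction. The mirror rule, 2-fold with siRNA 1 and under 0.5 with siRNA 2, took 119 genes, 38 higher and 81 lower. The median siRNA 2 ratio was 1.21 in the higher genes and -1.23 in the lower genes, and their median siRNA 1 ratios were 0.15 and -0.15. Over all tested genes the medians were 0.01 for siRNA 2 and -0.06 for siRNA 1.

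Exact 95% intervals from the read equivalents of each gene's largest transcript, which cover counting error only, excluded no change in 434 of the 435 genes, the exception being LETMD1. For 269 genes the whole interval lay past 2-fold. The same 2 libraries chose the members, so both counts were largely fixed by the rule. In 431 of the 432 genes with a transcript of at least 0.5 FPKM, every such transcript had a siRNA 2 ratio of the gene's sign. Isoforms share reads and their sum chose the gene, so this agreement was largely built in. Just inside the limits were SHLD2 (ratio 1.001) and DNAJC24 (-1.001), and just outside were DSTNP3 (0.999) and SNAPC1 (-0.999). At the siRNA 1 limit HIST2H2AA3 was taken with a siRNA 1 ratio of 0.499, and PLSCR4, with 0.501 and a siRNA 2 ratio of 2.36, was not.

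Some genes of the upper epidermis, some replication-dependent histones and a metallothionein were among the genes highest with siRNA 2 only. Keratinocytes that leave the basal layer switch from basal keratins to KRT1 and then build a cornified envelope, in which TGM1 cross-links precursors such as the SPRR proteins. KRT1, the type II keratin of the suprabasal layers, had 1.61 FPKM in control, 0.913 with siRNA 1 and 18.5 with siRNA 2, a siRNA 2 ratio of 2.90. SPRR1B stood at 8.34, 7.86 and 56.5 FPKM in the same order, a siRNA 2 ratio of 2.62. TGM1 stood at 1.56, 1.70 and 12.4 FPKM, a siRNA 2 ratio of 2.39. Control and siRNA 1 lay close together in all of these genes and siRNA 2 lay far above both, as follows from the rule and from naming the highest members.

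Of 7 tested genes in a list of cornified envelope and late differentiation genes, 3 were higher members (SPRR1B, TGM1 and SPRR2A) and none was a lower member. SPRR2A, a neighbour of SPRR1B on chromosome 1, had 4.13, 3.62 and 11.6 FPKM. The list has 37 genes, and TGM1 and SPRR2A passed the filter through the siRNA 2 library, so no median is read from the 7. The other 4 went different ways. The envelope precursor IVL stood at 6.29, 14.5 and 3.24 FPKM, and SPRR1A at 16.3, 8.61 and 32.7 FPKM. The plakin EVPL stood at 35.4, 30.2 and 27.4 FPKM, and its relative PPL at 172, 205 and 199 FPKM. In the list of early differentiation genes, with a median siRNA 2 ratio of -0.06 over 13 tested genes, KRT10, the partner keratin of KRT1, stood at 33.4, 31.8 and 32.1 FPKM. That list held KRT1 and the transcription factor KLF4 (6.28, 5.28 and 19.3 FPKM) among the higher genes and the transcription factor GRHL1 (7.73, 5.65 and 1.66 FPKM) among the lower. KRT1 passed the filter through the siRNA 2 library, so nothing is read from its place in that list.

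Basal and adhesion genes were also among the higher members. The 19 tested basal keratinocyte genes had a median siRNA 2 ratio of 0.64 and a median siRNA 1 ratio of 0.49, and 2 of them were members. TP63, the master transcription factor of stratified epithelia, stood at 28.1, 29.4 and 64.2 FPKM. TRIM29 stood at 254, 287 and 746 FPKM. The desmosomal cadherins DSG3 (55.2, 41.3 and 150.0 FPKM) and DSC3 (82.0, 113 and 182 FPKM) were the members among 18 tested junction genes, whose median ratio was 0.33 with siRNA 2. The protease KLK7, which cuts desmosomes in the outer epidermis, had 4.06, 4.67 and 11.5 FPKM. KLK7 passed the filter through the siRNA 2 library. The rule picked these members, so nothing is read from basal and outer layer genes being higher together. Of the 19 basal genes, 14 were above control with siRNA 2 and 5 below.

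The metallothioneins, small cysteine-rich proteins that bind zinc and copper, gave the second highest named member. MT1H stood at 2.37, 3.54 and 37.4 FPKM, a siRNA 2 ratio of 3.51. Its neighbour on chromosome 16, MT1G, stood at 12.7, 9.43 and 46.2 FPKM, and the pseudogene MT1L at 11.5, 12.5 and 30.3 FPKM. These copies are nearly identical in sequence, and the placing of reads that match several of them is not stated, so the split between them is uncertain. The zinc importer SLC39A10 went the other way, with 27.9, 24.3 and 4.74 FPKM. Of the 9 tested genes of the metallothionein and zinc list, 3 were higher members and 1 was a lower member. MT1H passed the filter through the siRNA 2 library, so nothing is read from this count.

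Metallothionein genes carry short metal response elements near their start, bound by the zinc-sensing factor MTF1. The RefSeq promoter of MT1H (GRCh38.p14, chr16:56669564-56669863, plus strand, 250 bases before to 50 after the start) is shown because MT1H had the highest ratio of any named protein-coding member. Capitals mark every match, on either strand, to the core letters TGCACNC or TGCGCNC, and overlapping matches run together.
MT1H promoter: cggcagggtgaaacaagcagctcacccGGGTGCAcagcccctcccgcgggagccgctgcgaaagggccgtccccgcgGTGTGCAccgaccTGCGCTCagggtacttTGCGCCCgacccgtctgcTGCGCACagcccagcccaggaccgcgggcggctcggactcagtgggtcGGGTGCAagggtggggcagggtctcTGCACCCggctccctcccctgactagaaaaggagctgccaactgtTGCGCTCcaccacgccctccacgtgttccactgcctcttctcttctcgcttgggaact
This window held 8 separate matches, and 3 or more were found in 2.64% of the 7507 tested genes with a promoter in the table. MT2A, which is no member (1166, 1205 and 1494 FPKM), also held 8. The higher members as a group were near the background, with 3 or more matches in 6 of 128 (4.69%).

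Histone mRNAs of the replication-dependent kind normally end in a stem-loop without a poly(A) tail. H2BC12 stood at 48.3 FPKM in control, 63.9 with siRNA 1 and 461 with siRNA 2, a siRNA 2 ratio of 3.23. Its neighbour on chromosome 6, H2BC11, stood at 3.36, 4.37 and 23.3 FPKM. The linker histone H1-2 stood at 10.9, 14.3 and 55.2 FPKM. In the histone list 3 of 15 tested genes were higher members (H2BC12, H1-2 and H2AC8), with a list median of 0.36 for siRNA 2 and 0.35 for siRNA 1. H2AC8 (3.26, 4.69 and 7.81 FPKM), H2BC4 and H4C14 passed the filter through the siRNA 2 library, so nothing is read from this count or median. H2BC11 and the near-identical neighbours HIST2H2AA3 and HIST2H2AA4, whose reads cannot be assigned with certainty, were higher members outside that list. All 6 of these higher members also had siRNA 1 levels above control, within the limit the rule allows. In the list 7 of 15 genes were at least 2-fold higher with siRNA 2, and the non-members among them were also higher with siRNA 1. They were H2AC6 (4.21, 9.85 and 51.1 FPKM), H2BC5 (10.7, 19.5 and 58.3 FPKM), H2BC4 (2.37, 4.84 and 8.79 FPKM) and H4C14 (2.12, 3.80 and 11.3 FPKM). The rise of these named histone genes was thus not confined to siRNA 2. It did not hold for the whole list, where 9 of the 15 tested genes were above control with siRNA 2 and 6 below. No member of the DNA replication list was higher, and CDC45, a part of the active replicative helicase, and MCM10, which helps to activate it, were lower members among its 43 tested genes (list median -0.28).

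Several signalling and metabolic genes were at the top as well. The long noncoding RNA ENSG00000286966 had the highest ratio of all, 3.72, with 1.72 FPKM in control, 1.22 with siRNA 1 and 34.9 with siRNA 2. SGK1, the serum- and glucocorticoid-inducible kinase, stood at 0.882, 1.40 and 18 FPKM, a siRNA 2 ratio of 3.34 that was 0.64 with the mean per transcript and 0.48 with the transcript holding the most bases. SLC2A3, a high-affinity glucose transporter, stood at 1.51, 2.03 and 24.0 FPKM. The calcium-binding protein gene CALB1 (1.08, 0.496 and 13.8 FPKM) and the matricellular CCN3 (2.43, 2.72 and 22.3 FPKM) were also among the 15 highest. So were the retinaldehyde dehydrogenase ALDH1A1 (1.69, 2.29 and 12.6 FPKM) and the keratin pseudogene KRT16P6 (1.75, 2.81 and 13.5 FPKM). The ratio of CALB1 went from 2.83 to 0.92 with the transcript holding the most bases. The added 1 FPKM weighs more on a mean or a single transcript than on a sum, for SGK1 as for CALB1. With 0.1 FPKM added, the 4 CALB1 transcripts of at least 0.5 FPKM ran from 2.88 to 3.18. Except for H2BC12 and H1-2, each of the 14 genes named here from the 15 highest was below 10 FPKM in both control and siRNA 1, and each was above 10 with siRNA 2.

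NF-kB feedback genes were split. TNFAIP3 (18.4, 21 and 47.9 FPKM), the ubiquitin-editing inhibitor of NF-kB, TNFAIP8 (9.52, 12.3 and 31.4 FPKM) and BCL3 (10.8, 7.97 and 26.5 FPKM) were higher members, and the RNase gene ZC3H12A (19.8, 16.7 and 8.89 FPKM) was a lower member, of 14 tested. Secreted proteins went both ways. Of 23 tested TGF-beta pathway genes, BMP2 (3.45, 4.36 and 9.82 FPKM) and FST (55.2, 70.7 and 131 FPKM) were higher members. LTBP2 (8.31, 6.03 and 3.39 FPKM) was a lower member of that list. BMP2 passed the filter through the siRNA 2 library, so nothing is read from this count. The Wnt inhibitor DKK1 (37.5, 51.0 and 111 FPKM) was the higher member of 11 tested Wnt pathway genes. The serpin neighbours SERPINB2 (42.1, 30.4 and 89.9 FPKM) and SERPINB10 (23.8, 17.5 and 50.6 FPKM) on chromosome 18 overlap in their listed exons, so they are not separate observations.

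**Figure D2:**
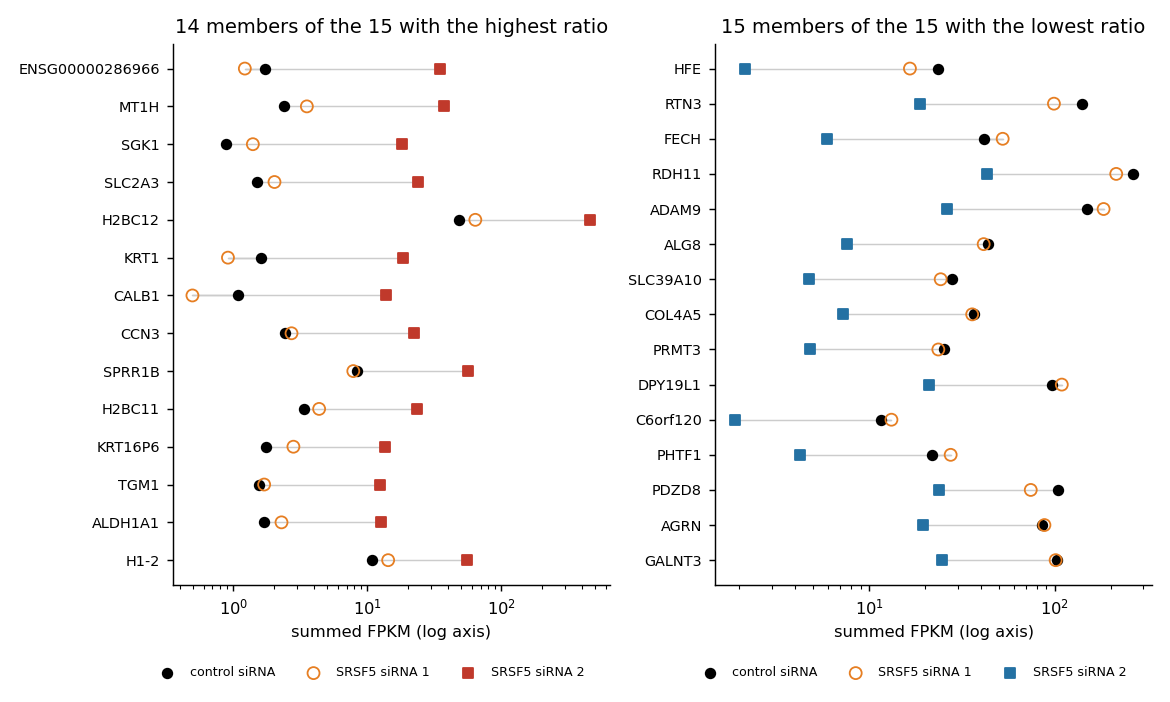
Summed FPKM on a log axis for 14 of the 15 members with the highest siRNA 2 ratio and the 15 with the lowest, with 1 point for each library. In every row the siRNA 2 square stands apart from the control (black) and siRNA 1 (open) points, as the rule requires.

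The 5 lowest genes differ in function. HFE, a membrane protein that sets iron uptake, had the lowest ratio, -2.96, with 23.6 FPKM in control, 16.6 with siRNA 1 and 2.15 with siRNA 2. FECH, which inserts iron into protoporphyrin to make heme, stood at 41.7, 52.4 and 5.91 FPKM, a ratio of -2.63. That ratio was -0.85 with the transcript holding the most bases, on which the added 1 FPKM weighs more. With 0.1 FPKM added, the 12 FECH transcripts of at least 0.5 FPKM ran from -2.75 to -2.22. RTN3, a reticulon of the endoplasmic reticulum, stood at 140.0, 98.9 and 18.7 FPKM, and RDH11, a retinol dehydrogenase of the same membrane, at 262, 214 and 43.3 FPKM. The metalloprotease ADAM9 stood at 149, 183 and 26.2 FPKM. HFE and RTN3 were already lower with siRNA 1, near the rule's limit, while FECH and ADAM9 were above control there.

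The other 10 of the 15 lowest had siRNA 2 ratios from -2.36 to -2.02. They were the N-glycan glucosyltransferase ALG8 (43.5, 41.4 and 7.64 FPKM), the zinc importer SLC39A10, the type IV collagen chain COL4A5 (36.6, 35.9 and 7.20 FPKM), the arginine methyltransferase PRMT3 (25.4, 23.6 and 4.81 FPKM), and DPY19L1 (96.5, 109 and 20.9 FPKM). With them stood C6orf120 (11.6, 13.2 and 1.89 FPKM), PHTF1 (21.8, 27.5 and 4.26 FPKM), PDZD8 (104, 74.2 and 23.8 FPKM), the basement membrane proteoglycan AGRN (85.6, 87.9 and 19.4 FPKM) and GALNT3, which starts mucin-type O-glycans (103, 101 and 24.6 FPKM). In each of these 10 the siRNA 1 level lay closer to control than to siRNA 2, as the rule requires at such ratios.

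Short words in the 3′ UTRs of the lower genes were counted, a property the rule did not use. For each gene the coding transcript with the most counted bases was taken from GENCODE 29 (GRCh38), which gave a 3′ UTR for 238 lower genes, 167 higher genes and 9038 tested genes. All 16384 words of 7 bases were searched on the mRNA strand, and words were ranked by the share of lower genes holding them less the share in the rest. The first was GTTACTA, and it was chosen after these values were seen. It was in the 3′ UTR of 85 of 238 lower genes (35.7%), the share it was chosen for. It was also in that of 657 of all 9038 genes (7.27%) and of 3 of 167 higher genes (1.80%). Of the 78 genes lower with siRNA 1 only, 4 held it (5.13%). The next in rank were TTACTAA (34.9% of lower genes), TGTTACT (32.8%) and TTACTAT (26.9%), all of which overlap it. The first that shares no run of 5 letters with it, AAAGATT, ranked 5 at 33.2% of lower genes against 19% of the rest.

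The word is shown in its setting for the 13 of the 15 lowest genes that hold it, since they carry the largest differences, and for SRSF5. Each line has the first such word in the 3′ UTR, or in the coding sequence where the 3′ UTR has none, read 5′ to 3′ on the mRNA with 10 bases on either side. Capitals mark the word.
HFE: tttactttatGTTACTAcatgcacttg
RTN3: aaatgcaacaGTTACTAaaacaccatt
FECH: ctaggtataaGTTACTAgtttggaatg
RDH11: tactgccagaGTTACTAgagatatcat
ALG8: tcatccctttGTTACTAacctcagtgt
SLC39A10: tgaatctagaGTTACTAtttttgtata
COL4A5: attttgcccaGTTACTAaaatggtaca
PRMT3: acatgtaactGTTACTAagcagtctat
DPY19L1: ttatcaattgGTTACTAtttcaatgca
C6orf120: gttttcaagaGTTACTAaaatcaagtt
AGRN: tgggtgccgtGTTACTAactctagtat
PHTF1, coding: ttgtttggctGTTACTActttatttca
PDZD8, coding: ccaccatgtaGTTACTAacgtagaaaa
SRSF5, coding: tagtgaaaggGTTACTAttgaacatgc
Of the 15 lowest genes, 11 held the word in the 3′ UTR and 2 more in the coding sequence alone, and ADAM9 and GALNT3 held it in neither. Of the 15 highest, 11 had a 3′ UTR to search, none held the word there and CALB1 held it in its coding sequence.

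These sites are spread over the genome (GRCh38, capitals only). On the plus strand they lie at chr6:26096483-26096489 in HFE, chr11:63758227-63758233 in RTN3, chr2:195735623-195735629 in SLC39A10 and chrX:108696673-108696679 in COL4A5. Also on the plus strand are chr11:20509189-20509195 in PRMT3, chr6:169703426-169703432 in C6orf120, chr1:1056055-1056061 in AGRN and chr14:69768799-69768805 in SRSF5. On the minus strand they lie at chr18:57550480-57550486 in FECH, chr14:67678098-67678104 in RDH11, chr11:78101063-78101069 in ALG8 and chr7:34931384-34931390 in DPY19L1. The coding sites, also on the minus strand, are chr1:113738126-113738132 in PHTF1 and chr10:117284311-117284317 in PDZD8. All lie inside exons of the deposited transcript models. HFE, FECH, SLC39A10 and COL4A5 hold a second copy in the same 3′ UTR, and C6orf120 holds 3 in all. Over all tested genes the ratio did not step with the copies, the median siRNA 2 ratio being -0.25 in 587 genes with 1, -0.25 in 59 with 2 and -0.19 in 11 with 3 or more.

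**Figure D3:**
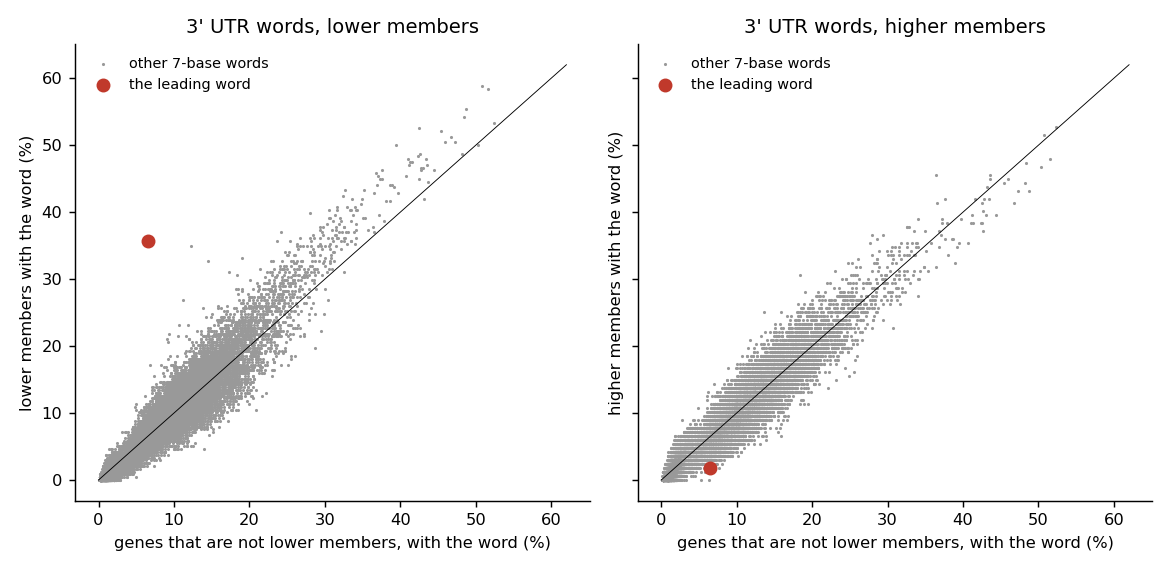
Each point is 1 of 16384 words of 7 bases, with the share of genes outside the lower set whose 3′ UTR holds it on the x axis and the share of lower (left) or higher (right) members on the y axis. The leading word (red) is at 35.7% against 6.50% on the left and at 1.80% on the right.

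The word's share was then set against the size of the ratios, as a description, since the word was picked on the lower genes. In lower genes with a ratio of -1.5 or below, 31 of 56 held it in the 3′ UTR (55.4%), and at -2 or below 11 of 16 did (68.8%). Over all tested genes with a 3′ UTR, binned by the siRNA 2 ratio, the share was 30.8% at or below -1, 16.6% between -1 and -0.75, 10.2% between -0.75 and -0.5, and 7.80% between -0.5 and -0.25. In the 5 bins above, it ran from 4.26% to 6.07%. Binned by the siRNA 1 ratio it was 7.43% at or below -1 and between 6.90% and 8.05% in the next 6 bins, with 9.28% and 14% in the 2 highest. Of the 99 genes with the word in the lowest siRNA 2 bin, 85 are the members the word was picked on, and the rule keeps members out of the outer siRNA 1 bins, so the contrast of these bins was largely fixed by the choice. Among the 83 genes that were 2-fold lower with siRNA 2 but not members because siRNA 1 had moved too, 14 held it (16.9%).

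Genes that the rule did not take also shifted with the word. Within 2-fold of control with siRNA 2, the median siRNA 2 ratio was 0.01 in 7822 genes without the word in the 3′ UTR and -0.14 in 543 genes with it. Their median siRNA 1 ratios were -0.07 and -0.06. In 360 such genes with the word in the coding sequence only, the medians were -0.18 for siRNA 2 and -0.01 for siRNA 1. These genes are not independent replicates, and the word was picked on the same libraries. The word was far from enough to place a gene in the set, since 85 of the 657 genes holding it in the 3′ UTR were lower members (12.9%, against 1.83% of genes without it), and 131 of the 238 lower genes had it in neither the 3′ UTR nor the coding sequence.

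**Figure D4:**
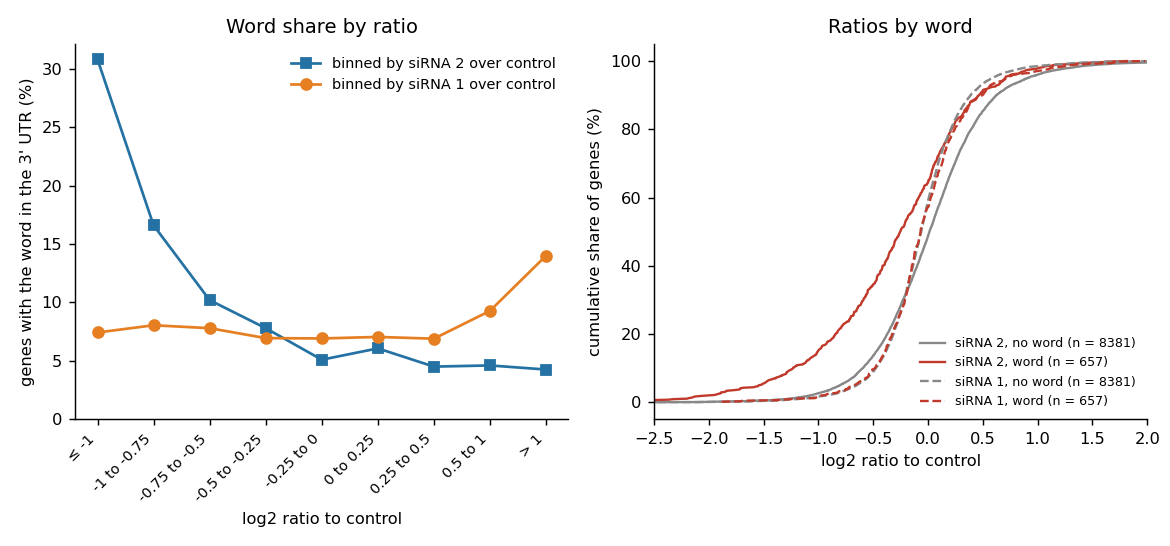
Left, the percent of genes with the word in the 3′ UTR in bins of the log2 ratio to control, which is 30.8% in the lowest siRNA 2 bin and 7.43% in the lowest siRNA 1 bin. Right, the cumulative share of genes by ratio, where genes with the word (red) lie left of those without (grey) for siRNA 2 (solid) and overlap them for siRNA 1 (dashed), with the members on which the word was picked included.

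Length and base composition of the 3′ UTRs were set beside the word, and their part in its share was not tested. The median 3′ UTR was 1282 bases in lower genes, 1221 in higher genes and 1180.5 in all. A and T made up 61.0%, 56.2% and 57.8% of the 3′ UTR bases of these groups. Per kilobase of 3′ UTR the word occurred 0.221 times in lower genes, 0.0103 in higher genes and 0.0452 in all, and per kilobase of coding sequence 0.0709, 0.0123 and 0.0270. For the 419 other words made of the same letters, the share in lower genes over the share in the rest had a median of 1.18 and a highest value of 2.55, against 5.49 for the word. The word was picked for its excess in these same genes. Its lead in density and in ratio was therefore largely fixed by that choice and tests nothing. The reverse complement TAGTAAC was in the 3′ UTR of 9.24% of lower genes and 6.67% of all.

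Pairing of the whole word with bases 2 to 8 of a small RNA needs UAGUAAC at those bases. None of the 2545 mature human miRNAs in the RefSeq table has these bases there. Pairing of the word with miRNA bases outside 2 to 8 was not searched, so a part of miRNAs was not tested. The word occurs once in the SRSF5 transcript used (SRSF5-201), in the coding sequence site shown above. No siRNA sequence was at hand, so whether the word matches siRNA 2 was not tested.

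Functional lists of lower genes held the word in few members each, too few to compare the lists. Sterol synthesis, which turns acetyl-CoA into cholesterol under control of the SREBP2 factor, had 6 lower members and no higher member of 29 tested genes, with a list median of -0.72 for siRNA 2 and -0.29 for siRNA 1. The members were INSIG1, which holds SREBP in the endoplasmic reticulum (263, 291 and 108 FPKM), and the enzymes CYP51A1 (106, 101 and 45.4 FPKM), TM7SF2 (16.9, 13.7 and 3.83 FPKM), SC5D (120.5, 92.1 and 42.7 FPKM), DHCR7 (554, 458 and 259 FPKM) and LSS (34.2, 24.6 and 16.4 FPKM). INSIG1 and CYP51A1 held the word in the 3′ UTR and TM7SF2 in the coding sequence, while SC5D, DHCR7 and LSS held it in neither. Another 6 genes of the list were 2-fold lower with siRNA 2 but outside the siRNA 1 limit.

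Members in the fatty acid and NRF2 lists were all lower, while other genes of the NRF2 list were higher. Of 21 tested fatty acid synthesis genes 4 were lower members (ELOVL5, GPAM, SCD and ME1), with a list median of -0.48, and none of the 4 held the word in 3′ UTR or coding sequence. SCD, which puts the double bond into stearoyl-CoA, stood at 2023, 1625 and 944 FPKM, and the elongase ELOVL5 at 179, 136 and 44.6 FPKM. Of 28 tested targets of the antioxidant factor NRF2, 5 were lower members, among them AKR1B10, TALDO1, EPHX1 and ME1, with a list median of -0.57 for siRNA 2 and -0.19 for siRNA 1. AKR1B10, an aldo-keto reductase, stood at 72.0, 51.6 and 17.1 FPKM, and none of these 4 held the word. TALDO1, an enzyme of the pentose phosphate pathway, stood at 638, 557 and 252 FPKM. Among the genes of that list that were not members, 2 were at least 2-fold higher with siRNA 2, the heme oxygenase HMOX1 (616, 429 and 1299 FPKM) and the exporter ABCC2 (3.77, 10.5 and 11.5 FPKM). The median siRNA 1 ratio was -0.26 in the fatty acid list.

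Both lower members of the heme and iron list, HFE and FECH, held the word, and the other 20 tested genes of the list were not members (list median -0.25). Oxidative phosphorylation genes encoded in the nucleus had 3 lower members of 47 (ATP5MC1, NDUFA1 and UQCRQ), with 42 of the 47 below control and a median of -0.31, while mitochondrially encoded mRNAs had no member and a median of -0.57. The aldehyde and retinoid list had 13 tested genes, with a median of -0.57 for siRNA 2 and -0.45 for siRNA 1. Its lower members were the retinol receptor STRA6 (9.97, 8.77 and 2.16 FPKM) and ALDH1A3 (104, 78.8 and 34.3 FPKM). ALDH1A1 was a higher member, but it passed the filter through the siRNA 2 library, so nothing is read from its direction. Actin-linked genes were split. TGFB1I1 (7.34, 7.39 and 18.9 FPKM) and FHL2 (ratio 1.22) were higher members. The vinculin gene VCL (146, 187 and 57.3 FPKM) and TPM4 (175, 217 and 84.7 FPKM) were lower members. VCL held the word in the 3′ UTR and TPM4 in the coding sequence. The cytokinesis gene ANLN (445, 518 and 119 FPKM), the lower member of 47 tested mitosis genes, held it in the 3′ UTR, and the phosphatase gene CDC25B (106, 116 and 232 FPKM) was the higher member of that list.

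The lists closest to the role of SRSF5 held few members, and at the background shares of 1.87% and 2.53% lists of these sizes hold few. Of 20 tested SR proteins and splicing kinases 1 was a member, the SR protein kinase SRPK2 (23.2, 18.1 and 49.3 FPKM). None of 37 tested hnRNP and other splicing regulator genes, none of 18 in nonsense-mediated decay and none of 11 in the small RNA pathway was a member. Outside these lists the spliceosomal genes SNRPE and SNRPA were lower members and SNRPA1 was a higher member. None of 63 ribosomal protein genes was a member, and 61 of them were above control with siRNA 2 (median 0.25).

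**Figure D5:**
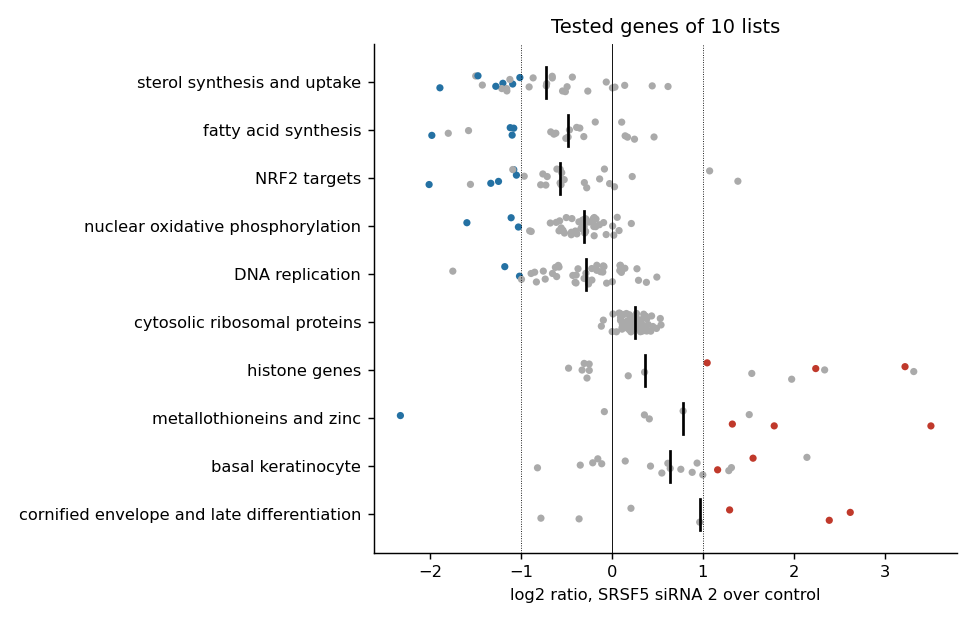
Log2 ratio of siRNA 2 over control for each tested gene of 10 lists, with higher members in red, lower members in blue, other genes in grey and a bar at the median. The sterol synthesis list has the median -0.72, the 7 cornified envelope genes are those that passed the filter, and members lie past 1 or -1 by the rule.

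Some members neighbour or overlap each other in the genome. There were 22 runs of neighbouring members, spanning up to 1228 kb. No expected number of runs was worked out, so nothing is read from this count. Overlapping exons on the same strand, with shared reads, were found in 9 pairs of members. Among these are CYP51A1 with ENSG00000285772, ATP5MF with ATP5MF-PTCD1, CHURC1 with CHURC1-FNTB, and ZFAS1 (68.0, 81.5 and 149 FPKM) with ENSG00000274760 and ENSG00000277967. In all, 37 members overlap another tested gene on their strand. Protein-coding genes made up 91.4% of the higher genes, 95.6% of the lower genes and 92.2% of all tested genes. Higher genes came from lower levels, with a median control sum of 9.94 FPKM against 27.8 in lower genes and 22.6 in all tested genes, which the filter on the mean favours.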

How the data were processed

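The authors deposited FPKM values per transcript with exons and lengths, per the file headers; builds listed in the submitters' processing notes, with no role stated, are GRCh38.p12, GRCm38 and mm10. The aligner is not given in the sources used here. All 191938 transcripts shared with GENCODE 29 by versioned ID had the same position, which places them on GRCh38. Each library's FPKM multiplied by length fell on whole steps (tolerance 0.05) in 100.0% of values. FPKM was summed per gene over transcripts on chromosomes, with no rescaling and no statistical test, using Python 3.11.15, pandas 2.3.3 and scipy 1.17.1, and the rule and word search were tested on simulated data. PCR copies are not independent molecules, so intervals cover counting error only. Named genes are SRSF5, the 15 highest and 15 lowest members, members of a list with at least 2 members, those nearest the limits and neighbouring members; any others, and the single members of a list, were named after their values were seen. The members and the 57 gene lists were chosen with earlier results of these data known. A few genes that the naming rule takes are not reported here. Words were read from GENCODE 29 transcripts matched by ID without version. Alternatives changed the pseudocount, filter, gene level, scaling and limits.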

Additional observations from a re-analysis of the deposited data

How the results depend on the processing

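The number of genes depends on where the limits are set and on how a gene's level is formed, while none of 217 recomputed ratios of SRSF5 and the 15 highest and 15 lowest members changed sign over 7 alternatives each (99 moved by more than their counting interval). Higher genes numbered 113 with a pseudocount of 5 FPKM, 333 with a filter of at least 1 FPKM, 80 with a filter of at least 20 and 379 with no filter. They numbered 109 with the mean per transcript, 112 with the transcript holding the most bases, 94 and 304 with siRNA 1 limits of 0.25 and 1, 45 with a siRNA 2 limit of 1.5 and 377 with no limit on siRNA 1. Lower genes numbered 127 with a pseudocount of 5 and also 127 with a filter of at least 20, 109 with the mean per transcript, 138 with the transcript of highest FPKM, 106 with the transcript holding the most bases, 140 with a siRNA 1 limit of 0.25 and 57 with a siRNA 2 limit of 1.5. A fixed pseudocount weighs more on a mean or a single transcript than on a sum, which by construction lowers those counts. The other alternatives, rescaling included, stayed within 1.5 times of the 185 and 250 genes. The percent of lower genes with the word in the 3′ UTR was 44.3 with a pseudocount of 5 and 48.0 with the transcript holding the most bases, and between 30.8 and 39.6 under the other 8 alternatives, all of which were added after seeing the data. No paired analysis was possible because each group has 1 library. The depth per library limits low genes most, and without replicates the spread between cultures is unknown.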
